A study of Mus musculus with 6 samples.

Results

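The genes described here are 10 members of the osmolyte transport and osmoprotective programme reported for TonEBP, out of 21899 genes in the count table. They were chosen by name: Slc5a3, Slc6a6, Slc6a12, Slc38a2, Akr1b3, Hspa4l, Sgk1, Slc12a2, Lrrc8a and Aqp1. The study asked what lies downstream of TonEBP in BV2, an immortalized line derived from mouse microglia. Lentivirus carried either a scrambled shRNA (sh-NC, 3 libraries) or an shRNA against TonEBP, the product of Nfat5 (sh-TonEBP, 3 libraries), and the cells were selected with puromycin. Both groups were thus infected and selected, and each group rests on 1 shRNA sequence. No added salt or other osmotic treatment is named in the labels of either group. Whether the 3 libraries of each group were separate cultures is not stated, so p-values here reflect the spread among these libraries, which may be technical.

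TonEBP is a transcription factor of the Rel family that binds TonE elements and is best known from the kidney medulla, where cells live in hypertonic fluid. Cells in hypertonic medium first take up ions and then replace them with organic osmolytes, small solutes such as myo-inositol, taurine, betaine and sorbitol that do not disturb proteins. TonEBP raises transcription of the carriers and enzymes that accumulate these solutes and of chaperones that protect proteins, and cells that swell release osmolytes again through volume-regulated channels.

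The promoter windows of 3 members are shown because their sequences differ in the TonE core, the motif through which TonEBP is known to bind. Each is the 250 bases before an annotated start, from RefSeq on GRCm38.p6, written 5′ to 3′ in lower case, and the capitals mark the core TGGAAA, which was searched on both strands. Slc5a3 (chr16:92058072-92058321, plus strand) and Hspa4l (chr3:40745363-40745612, plus strand) are the members with the largest falls, and Slc6a12 (chr6:121342324-121342573, plus strand, the first of its 5 annotated starts) is the member at or near 0 counts.
Slc5a3: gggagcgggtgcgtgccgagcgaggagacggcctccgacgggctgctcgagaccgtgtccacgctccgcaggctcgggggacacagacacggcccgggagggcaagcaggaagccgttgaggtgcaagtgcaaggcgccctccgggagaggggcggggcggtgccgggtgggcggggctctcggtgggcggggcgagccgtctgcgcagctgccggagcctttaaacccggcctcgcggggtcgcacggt
Hspa4l: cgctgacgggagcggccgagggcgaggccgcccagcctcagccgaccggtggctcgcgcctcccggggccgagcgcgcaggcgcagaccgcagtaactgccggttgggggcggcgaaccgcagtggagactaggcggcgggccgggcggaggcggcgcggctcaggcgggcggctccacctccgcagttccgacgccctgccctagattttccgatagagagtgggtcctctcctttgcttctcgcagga
Slc6a12: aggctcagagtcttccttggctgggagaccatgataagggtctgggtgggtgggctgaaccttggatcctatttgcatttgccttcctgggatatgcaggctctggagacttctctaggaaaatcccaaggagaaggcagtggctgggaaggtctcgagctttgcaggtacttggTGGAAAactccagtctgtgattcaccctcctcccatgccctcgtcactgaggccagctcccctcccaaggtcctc
The core in the Slc6a12 window begins 75 bases before the start, and this window also matches the full TonE consensus. Neither the Slc5a3 nor the Hspa4l window holds the core. Windows were found for 7 of the 10 members, 16 windows in all, and the core lay in 3 of them, 2 of Sgk1 and 1 of Slc6a12. Of all 32851 windows in RefSeq, 18.6% hold the core and 4.31% the full consensus, which itself contains the core. The windows of Slc38a2, Lrrc8a and Aqp1 hold no core, and Slc6a6, Akr1b3 and Slc12a2 were not searched. A match describes the letters of a window and no match says only that the letters are not in these 250 bases. The bases beyond them were not searched.

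The libraries held 13621188 to 16140042 counts, and levels are given in CPM, counts scaled to a common library size after TMM normalization. Where a library had 0 counts, the level could still be 0.186 to 0.220 CPM, depending on the library (3 counts, counting error only). The cells are labelled microglia, but of 14 markers of microglia and leukocytes 10 were under 1 CPM in every library and P2ry12 was at 0. The 14 markers summed to 59.4 to 65.2 CPM in sh-NC and 70.0 to 87.2 CPM in sh-TonEBP. Other marker sums moved with the knockdown too. Those of 10 fibroblast markers went from 485 to 529 CPM in sh-NC to 1605 to 1764 CPM in sh-TonEBP (7 of 8 tested higher, Thy1 at 0), those of 8 epithelial markers from 618 to 752 to 1209 to 1518 (1 of 2 tested higher, most of it Krt8) and those of 6 astrocyte markers from 158 to 176 to 342 to 382 (1 of 2 higher, most of it Gja1). The sum of 8 kidney tubule markers fell from 67.6 to 70.7 CPM to 25.2 to 26.9 (2 of 3 tested lower), most of it Lrp2, with Umod at 0 and 5 of the 8 under 1 CPM in every library. Sums of 6 markers each ran from 8.29 to 12.5 against 15.9 to 26.4 CPM for endothelium, from 23.2 to 24.3 against 36.1 to 43.1 for neurons and from 21.2 to 25.2 against 12.2 to 15.97 for oligodendrocytes, where Olig2 was at 0. For endothelium Egfl7 alone was tested and higher, while the mean levels of Pecam1, Cdh5, Kdr, Tek and Cldn5, all under the filter, were lower in sh-TonEBP. The part of these shifts in the results on the 10 genes was not tested. In bulk RNA, fewer cells of a type and less RNA per cell cannot be told apart.

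Nfat5, the gene the shRNA targets, had 9641, 11640 and 9652 counts in the control libraries and 3894, 4631 and 5257 in the knockdown libraries. All knockdown libraries lay below all controls, and the fitted level was 45.5% of sh-NC (log2 fold change −1.14, standard error 0.16, adjusted p = 1.6e-04 by edgeR's quasi-likelihood test with Benjamini-Hochberg adjustment, as for every adjusted p here unless another tool is named). Of the 10 osmolyte and osmoprotective genes, 9 passed the filter on low counts. In sh-TonEBP, 4 of these were lower (Slc5a3, Hspa4l, Slc38a2 and Slc12a2), 1 was higher (Lrrc8a) and the remaining 4 missed the threshold, an adjusted p under 0.05. Over all 11943 genes tested 26.2% were lower and 26.3% were higher, 52.5% in all, so 5 called of 9 is near the background. The median log2 fold change was −0.42 over the 9 genes and 0.00 over all genes tested. The libraries of both groups stood apart without overlap for these 5 genes, as they did for 62.7% of the 11943 genes (31.5% lower). Hspa4l and Slc5a3 fell most. The share of all tested genes with a lower log2 fold change was 1.38% for Hspa4l and 6.53% for Slc5a3.

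**Figure D1:**
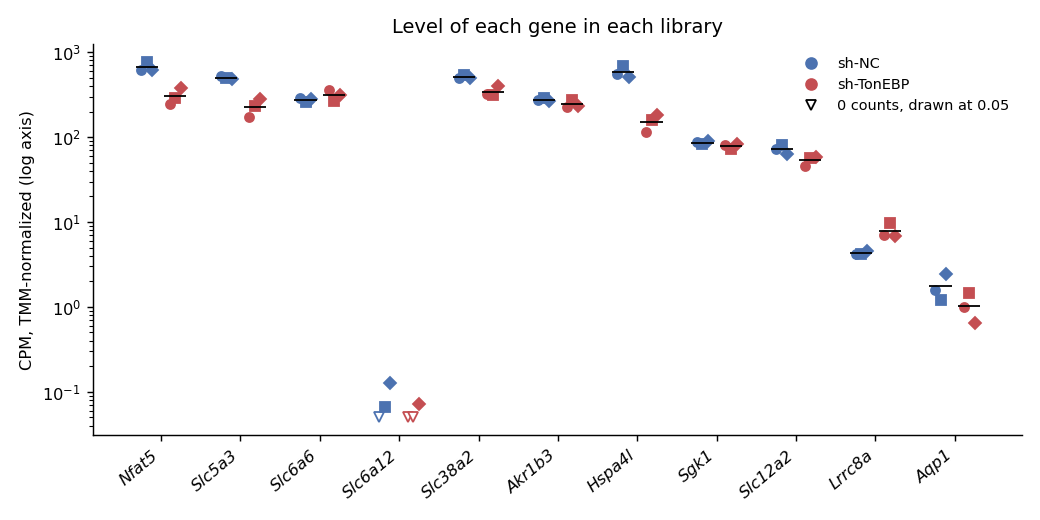
Level of Nfat5 and the 10 genes in each library, in TMM-normalized CPM on a log axis. Blue marks sh-NC and red sh-TonEBP, circles, squares and diamonds stand for replicates 1, 2 and 3, the bar is the group mean, and open triangles stand for 0 counts. The groups stand apart for Slc5a3, Hspa4l, Slc38a2, Slc12a2 and Lrrc8a and overlap for the other tested members.

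Among the carriers of organic osmolytes, Slc5a3 encodes SMIT1, which takes up myo-inositol together with sodium. It stood at 520, 491 and 490 CPM in the control libraries and at 172, 236 and 280 CPM in the knockdown libraries. Each knockdown library lay far below the lowest control, and the sh-NC libraries lay closer together than the knockdown libraries. The means were 500.5 ± 17.2 and 229 ± 54.2 CPM (SD, n = 3 per group). The fitted level in sh-TonEBP was 45.8% of sh-NC (95% interval 36.2% to 57.9%, log2 fold change −1.13, standard error 0.16, adjusted p = 1.3e-04). Its log2 fold change and that of Nfat5 stood side by side at −1.13 and −1.14.

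Slc5a3 lies within the locus of Mrps6, which encodes a protein of the small mitochondrial ribosomal subunit. Their annotated starts are 14 bases apart on the same strand, and 159 of the 10913 exonic bases of Slc5a3 (1.46%) are shared with Mrps6. Mrps6 had 266, 268 and 235 counts in sh-NC and 288, 343 and 253 in sh-TonEBP, or 17.1, 17.8 and 15.0 against 18.05, 21.6 and 18.2 CPM. Its knockdown libraries lay just above the controls in CPM and did not pass the test (log2 fold change 0.21, 95% interval −0.10 to 0.53, adjusted p = 0.23). Counts of Slc5a3 per count of Mrps6 were 30.5, 27.7 and 32.6 in the control libraries and 9.53, 10.9 and 15.4 in the knockdown libraries. This ratio within a library does not depend on the scaling, and its groups did not overlap. The transcripts differ widely in length, at 10913 bases for Slc5a3 and 846 for Mrps6. With the length and GC offset described further on, Mrps6 was at −0.30 (adjusted p = 0.103) and Slc5a3 at −0.39 (adjusted p = 0.00347), so the unequal change of these neighbours was seen only without the offset.

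Slc6a6 encodes TauT, the taurine carrier. It stood at 289, 259 and 278 CPM in sh-NC and at 363, 266 and 312 CPM in sh-TonEBP. The groups overlapped, since sh-TonEBP library 2 lay among the controls. The fitted level was 114% of sh-NC with a 95% interval of 94.2% to 138% (log2 fold change 0.19, standard error 0.13, adjusted p = 0.224). Slc5a3 and Slc6a6 stood side by side in the controls, with 1.80, 1.90 and 1.76 counts of Slc5a3 per count of Slc6a6, and the ratio was 0.474, 0.884 and 0.897 in the knockdown libraries.

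Slc6a12 encodes BGT1, the carrier of betaine and GABA, and a TonE element in the promoter of the dog gene was among the first described. It had 0, 1 and 2 counts in the control libraries and 0, 0 and 1 in the knockdown libraries. Every library was under the 3-count limit, so a difference was not detectable at this depth and no fold is given. The only window printed above that holds the TonE core therefore belongs to a gene with almost no reads here.

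Slc38a2 encodes SNAT2, a sodium-coupled carrier of small neutral amino acids that cells use as early osmolytes. It stood at 497, 536 and 491 CPM in sh-NC and at 319, 310 and 397 CPM in sh-TonEBP. The groups did not overlap, and the highest knockdown library lay below the lowest control. The means were 508 ± 24.5 and 342 ± 48.2 CPM (SD, n = 3 per group), and the fitted level was 67.3% of sh-NC (95% interval 55.8% to 81.1%, log2 fold change −0.57, standard error 0.12, adjusted p = 0.00233). Slc38a2 had 2.87, 2.93 and 2.66 counts per count of its paralog Slc38a1 in sh-NC and 2.27, 2.71 and 2.56 in sh-TonEBP, ratios that overlapped between the groups.

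Akr1b3 encodes aldose reductase, which makes the osmolyte sorbitol from glucose. It stood at 272, 291 and 264 CPM in sh-NC and at 229, 271 and 231 CPM in sh-TonEBP. The groups overlapped through sh-TonEBP library 2. The fitted level was 88.5% of sh-NC with a 95% interval of 74.7% to 105% (log2 fold change −0.18, standard error 0.11, adjusted p = 0.2). Counts of Slc5a3 per count of Akr1b3 were 1.91, 1.69 and 1.86 in sh-NC and 0.751, 0.868 and 1.21 in sh-TonEBP, without overlap. This gap rested on the raw counts of transcripts of 10913 and 1387 bases. With the length and GC offset the level was 76.2% of sh-NC for Slc5a3 and 74.1% for Akr1b3, so the gap was seen only without the offset.

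Hspa4l encodes Osp94, a chaperone of the HSP110 family first described as an osmotic stress protein. It stood at 551, 679 and 516 CPM in the control libraries and at 114, 160 and 182 CPM in the knockdown libraries. No knockdown library came near the lowest control. The means were 582 ± 85.9 and 152 ± 35.0 CPM (SD, n = 3 per group). The fitted level was 26.1% of sh-NC (95% interval 20.1% to 34.0%, log2 fold change −1.94, standard error 0.17, adjusted p = 1.1e-05), the lowest of the 9 tested members.

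Hspa4, the close paralog of Hspa4l, stood at 422 ± 64.7 CPM in sh-NC and 409 ± 22.7 CPM in sh-TonEBP (SD, n = 3 per group; log2 fold change −0.04, adjusted p = 0.781). Counts of Hspa4l per count of Hspa4 were 1.43, 1.37 and 1.34 in sh-NC and 0.296, 0.373 and 0.440 in sh-TonEBP. Hspa4l thus had more reads than its paralog in each control library and fewer in each knockdown library. This crossing holds for reads only, as the transcripts have 9479 and 4618 bases. In CPM per kilobase Hspa4l was below Hspa4 in both groups, at 61.4 against 91.4 in sh-NC and 16.04 against 88.6 in sh-TonEBP. With the length and GC offset described further on, Hspa4l was at −1.14 (adjusted p = 7.4e-08) and Hspa4 at 0.20 (adjusted p = 0.0947). Counts of Hspa4l per count of Akr1b3 were 2.03, 2.34 and 1.95 in sh-NC and 0.497, 0.589 and 0.789 in sh-TonEBP, again without overlap. Among the sh-TonEBP libraries, the one lowest in Nfat5 CPM was also lowest in Slc5a3 and Hspa4l, and the one highest in Nfat5 was highest in both. With 3 libraries that share their scaling, this order is given as a description. These transcripts are also all long, at 13380 bases for Nfat5, 10913 for Slc5a3 and 9479 for Hspa4l, and the part of length in the order was not tested.

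**Figure D2:**
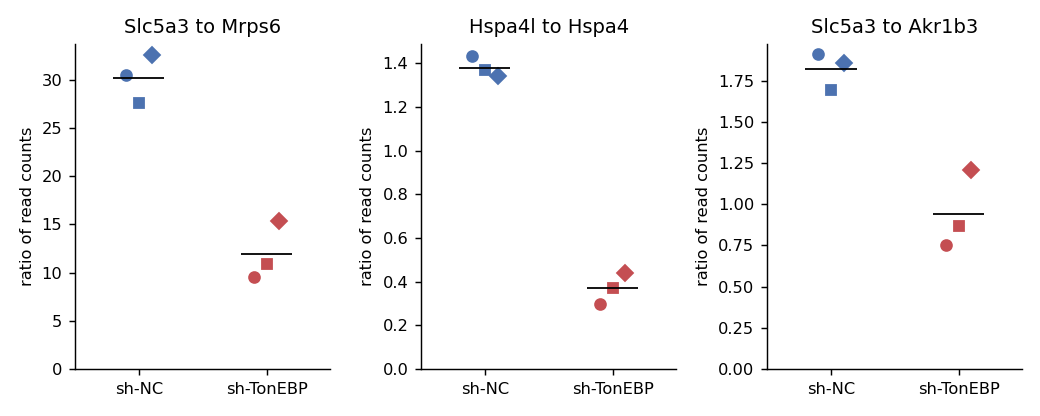
Read counts of Slc5a3 per count of Mrps6, of Hspa4l per count of Hspa4, and of Slc5a3 per count of Akr1b3 in each library, on linear axes from 0, without the length and GC offset. Circles, squares and diamonds stand for replicates 1, 2 and 3 and the bar is the group mean; in all 3 panels every sh-TonEBP library (red) lies below every sh-NC library (blue).

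Sgk1, a kinase that salt and corticosteroids induce and that raises the activity of many ion carriers, stood at 87.7, 82.4 and 89.1 CPM in sh-NC and at 80.4, 72.7 and 82.5 CPM in sh-TonEBP. The groups overlapped by the smallest of margins, at 82.5 against 82.4 CPM. The fitted level was 90.9% of sh-NC with a 95% interval of 77.2% to 107% (log2 fold change −0.14, standard error 0.11, adjusted p = 0.298).

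Slc12a2 encodes NKCC1, the cotransporter of sodium, potassium and chloride that takes up ions when cells shrink. It stood at 72.9, 80.1 and 63.7 CPM in sh-NC and at 46.2, 57.2 and 58.0 CPM in sh-TonEBP, and the groups did not overlap. The means were 72.2 ± 8.20 and 53.8 ± 6.59 CPM (SD, n = 3 per group), and the fitted level was 74.5% of sh-NC (95% interval 61.2% to 90.8%, log2 fold change −0.42, standard error 0.13, adjusted p = 0.0167). Without sh-NC library 2 the adjusted p was 0.0596, so this call rests on that library.

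Lrrc8a encodes the obligatory subunit of the volume-regulated anion channel, through which swollen cells release chloride and organic osmolytes. It had 65, 63 and 72 counts in sh-NC and 113, 155 and 95 counts in sh-TonEBP, or 4.17, 4.18 and 4.60 CPM against 7.08, 9.75 and 6.84 CPM. Every knockdown library lay above every control. The fitted level was 183% of sh-NC (95% interval 134% to 249.6%, log2 fold change 0.87, standard error 0.21, adjusted p = 0.004). In the annotation Lrrc8a shares 2853 of its 4308 exonic bases (66.2%) with Gm28035 on the same strand. Gm28035 had 0 counts in every library, and how shared reads were handled is not given, so the level of Lrrc8a is uncertain.

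Aqp1 encodes a water channel that hypertonicity induces in kidney cells. It had 25, 18 and 38 counts in sh-NC and 16, 23 and 9 counts in sh-TonEBP. The counts were low and the groups overlapped. The log2 fold change was −0.74 with a 95% interval of −1.60 to 0.13 (standard error 0.40, adjusted p = 0.135), too wide to tell a fall from no change.

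Transcript length bore on these values. Across 11929 genes the log2 fold change fell with the length of the transcript (Spearman correlation −0.30, across genes, which share the 6 libraries and are not independent). The median length of the tested genes was 3157 bases, against 10913 for Slc5a3, 9479 for Hspa4l and 1387 for Akr1b3. A trend of the counts on length and GC content was therefore removed in each library, as an offset in the same edgeR fit. The log2 fold changes then became −1.14 for Hspa4l (adjusted p = 7.4e-08), −0.39 for Slc5a3 (adjusted p = 0.00347) and 0.73 for Lrrc8a (adjusted p = 0.00663), all still past the test. That of Slc38a2 was −0.20 and missed it (adjusted p = 0.0849). Slc12a2 turned to the other side at 0.03 (adjusted p = 0.827). The offset thus removed the calls of both, and it added calls for genes that had none. Akr1b3 became lower at −0.43 (adjusted p = 0.0017), Slc6a6 higher at 0.28 (adjusted p = 0.0268) and Aqp1 lower at −0.96 (adjusted p = 0.0458, and 0.0684 with the replicate block added, which lost the call). Nfat5, itself a long transcript, went to −0.37 (adjusted p = 0.00296). The median over the 9 genes went from −0.42 to −0.20 and that over all genes to 0.05. Hspa4l and Slc5a3 were thus lower and Lrrc8a higher with and without the offset, while the calls of Slc38a2, Slc12a2, Akr1b3, Slc6a6 and Aqp1 depended on it.

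**Figure D3:**
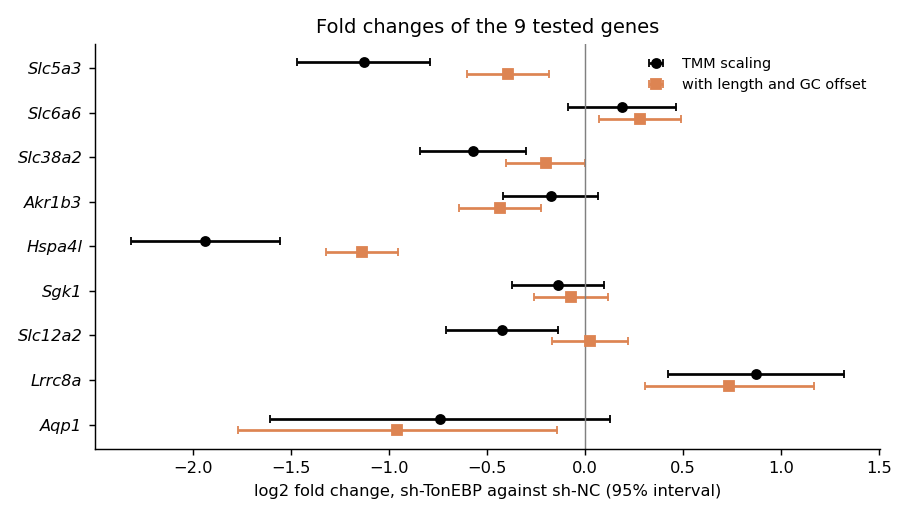
Log2 fold change of each of the 9 tested genes, sh-TonEBP against sh-NC, with its 95% interval, from the TMM-scaled fit (black circles) and with the length and GC offset (orange squares). Slc5a3 and Hspa4l lie below 0 and Lrrc8a above 0 in both, and the intervals of Slc5a3 and Hspa4l move toward 0 with the offset.

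Levels between genes were compared per length, as CPM per kilobase of the longest annotated transcript. In sh-NC the order was Akr1b3 (mean 199), Slc38a2 (109), Hspa4l (61.4), Slc5a3 (45.9), Slc6a6 (44.5), Sgk1 (27.9), Slc12a2 (11.1), Lrrc8a (1.004), Aqp1 (0.663) and Slc6a12 (0.0245). Slc5a3, at 44.9 to 47.7 over the control libraries, and Slc6a6, at 41.9 to 46.6, overlapped, while the other neighbours down to Aqp1 did not. In sh-TonEBP the means were 176 for Akr1b3, 73.4 for Slc38a2, 50.7 for Slc6a6, 25.4 for Sgk1, 21.0 for Slc5a3 and 16.04 for Hspa4l. Hspa4l and Slc5a3 had thus moved from above to below Slc6a6 and Sgk1 in their means. The place below Sgk1 holds only without the length and GC offset, with which Hspa4l was at 45.5%, Slc5a3 at 76.2% and Sgk1 at 95.2% of its sh-NC level. Over the knockdown libraries Slc5a3 ranged from 15.8 to 25.6, which overlapped with Hspa4l (up to 19.2) and with Sgk1 (23.5 to 26.7). The sorbitol enzyme was the most abundant of the 10 mRNAs per length in both groups.

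The surrounding pathway was read from 8 lists of other genes, 99 of them tested, with 24 higher, 27 lower and 48 short of the threshold. Over all genes tested 26.3% were higher and 26.2% lower, so the 99 genes were near the background. Their median log2 fold change was −0.17. With the length and GC offset 15 of these 51 calls were lost, and 3 of the 51 genes changed sign (Akr1a1, Nedd4l and Trpm7). Of the other carriers of osmolytes and amino acids, 12 of 20 were tested, with 5 lower, 2 higher and a median of −0.30. With the offset, or without sh-NC library 1 or 3 or sh-TonEBP library 1 or 2, 1 was higher. Slc38a9, the arginine sensor of the lysosome, went from 37.3 ± 3.74 to 19.4 ± 1.67 CPM (SD, n = 3 per group; log2 fold change −0.94, adjusted p = 1.7e-04). Slc38a6, of the same amino acid carrier family, fell by 0.91 on the log2 scale (adjusted p = 2.7e-04) and Slc16a6, a carrier reported to move taurine, fell by 0.96 (adjusted p = 0.0048). All 3 kept a fall past the test with the offset. Slc6a13, Slc6a11, Slc44a1 and Slc38a5 had under 3 counts in every library.

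Of the enzymes that make or break down osmolytes, 19 of 23 were tested, with 6 higher, 4 lower and a median of −0.04. The higher count was unsteady, at 3 without any single sh-NC library or without sh-TonEBP library 1 and at 2 without sh-TonEBP library 2. With the offset 3 were higher and 5 lower. Csad, which makes the taurine precursor hypotaurine from cysteine sulfinate, went from 22.9 ± 0.218 to 34.5 ± 2.65 CPM (SD, n = 3 per group; log2 fold change 0.60, adjusted p = 0.00191). Ado, a thiol dioxygenase that makes hypotaurine from cysteamine, went the other way, from 62.7 ± 4.86 to 42.3 ± 1.05 CPM (log2 fold change −0.57, adjusted p = 0.00138). The enzymes of these routes to hypotaurine thus moved in opposite directions, with and without the offset. Gpcpd1, which splits the osmolyte glycerophosphocholine, fell by 0.73 on the log2 scale (adjusted p = 0.00132), a call lost with the offset (adjusted p = 0.145). Gdpd5, of the same list, went the other way, from 7.75 ± 2.51 to 14.4 ± 3.37 CPM (log2 fold change 0.90, adjusted p = 0.00786). It kept its call with the offset (adjusted p = 0.00592). Chdh, the choline dehydrogenase that makes the betaine precursor, and Bhmt, which uses betaine, had under 3 counts in every library.

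Of the cation chloride cotransporters, their kinases and related ion carriers, 17 of 24 were tested, with 6 higher, 5 lower and a median of −0.21 (−0.06 with the offset). The lower count was 3 without sh-NC library 1 or 3 or without sh-TonEBP library 1 or 2. Stk39, the kinase SPAK that activates NKCC1, went from 42.2 ± 2.85 to 19.4 ± 1.92 CPM (SD, n = 3 per group; log2 fold change −1.12, adjusted p = 4.4e-05). Slc4a2, an anion exchanger, rose by 1.23 on the log2 scale (standard error 0.21, adjusted p = 7.4e-04). Stk39 was thus lower, while this exchanger was higher. Stk39 is not the only kinase of this list. Oxsr1, more abundant at 237 CPM in sh-NC, fell by less (log2 fold change −0.48, adjusted p = 0.00352). Wnk1 (adjusted p = 0.188) and Wnk4 (adjusted p = 0.112) did not pass. Wnk3 had under 3 counts in every library.

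Of the genes through which SGK and NEDD4 control transport, 12 of 14 were tested, with 1 higher, 3 lower and a median of −0.20. Without sh-NC library 1 or sh-TonEBP library 1 the higher count was 0. With the offset 5 were higher and 2 lower, and the median was 0.10. Rictor, the subunit of mTORC2 needed to activate SGK1, went from 100.3 ± 7.42 to 40.3 ± 8.70 CPM (SD, n = 3 per group; log2 fold change −1.32, adjusted p = 4.0e-05), and its log2 fold change was −0.67 with the offset (adjusted p = 1.7e-05). Ndrg1, whose protein SGK1 phosphorylates, fell by 0.98 on the log2 scale (adjusted p = 2.6e-04). Nedd4l, a ubiquitin ligase that removes the epithelial sodium channel from the membrane, was at −0.41 (adjusted p = 0.0109) and at 0.03 with the offset (adjusted p = 0.835). Scnn1b and Scnn1g, subunits of that channel, had under 3 counts in every library.

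Of the channels and sensors of cell volume, 12 of 13 were tested, with 3 higher, 4 lower and a median of −0.06, against 4, 2 and 0.02 with the offset. Clcn3, a chloride proton exchanger of endosomes, went from 215 ± 25.8 to 124 ± 8.30 CPM (SD, n = 3 per group; log2 fold change −0.79, adjusted p = 2.2e-04), a call lost with the offset (adjusted p = 0.146). Kcnn4, a calcium-activated potassium channel, rose from 38.9 ± 6.33 to 62.8 ± 8.31 CPM (log2 fold change 0.69, adjusted p = 0.00206). Lrrc8b, a partner of Lrrc8a in the anion channel, fell by 0.71 on the log2 scale (adjusted p = 0.00208). Its log2 fold change was −0.28 with the offset (adjusted p = 0.0398). Lrrc8a and Lrrc8b thus moved in opposite directions, though the level of Lrrc8a is uncertain and the fall of Lrrc8b was smaller with the offset. Of the other aquaporins, 5 of 11 were tested and 0 passed by edgeR or by DESeq2, while 1 higher and 1 lower had an unadjusted p under 0.05 by edgeR. Their median was −0.58 at levels of at most 9.51 CPM in any library. The 3 with the smallest p were Aqp11 (log2 fold change 0.42, adjusted p = 0.0597), Aqp5 (−0.98, adjusted p = 0.0629) and Aqp8 (−0.96, adjusted p = 0.119), and Aqp12 was at 0 counts. These calls depended on the setting, with 1 lower without sh-NC library 2 or without sh-NC library 3, 1 higher with no filter on low counts, and 1 higher and 2 lower with the offset.

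More of the other chaperones rose than fell. The list held 12 genes of the HSP110 and HSP70 families, their cofactors, Hsf1 and the small heat shock proteins Cryab and Hspb1. Of these 10 were tested, and 6 were higher and 1 was lower, with a median of 0.67. Over all genes 26.3% were higher, 26.2% lower and the median was 0.00. Without sh-NC library 1, 2 were lower. Dnajb1, a cofactor of HSP70, went from 48.1 ± 3.56 to 95.1 ± 2.30 CPM (SD, n = 3 per group; log2 fold change 0.98, adjusted p = 3.1e-05). Hsph1, the HSP110 member that heat induces, went from 221 ± 10.1 to 356 ± 28.1 CPM (log2 fold change 0.69, adjusted p = 3.1e-04), and Cryab, a small heat shock protein, from 1.60 ± 0.334 to 5.39 ± 0.525 CPM (log2 fold change 1.75, adjusted p = 1.7e-04). The gene called lower was Hspa1l, of the HSP70 family, at low levels of 1.72 against 0.479 CPM. Its log2 fold change was −1.82 (adjusted p = 0.00541), and −1.99 with the offset (adjusted p = 0.00145). Hspb1, under the filter, had 9, 21 and 23 counts in sh-NC and 6, 9 and 6 in sh-TonEBP. Of the 3 HSP110 genes, Hspa4l fell, Hsph1 rose and Hspa4 did not pass the test. The list had 6 higher and 1 lower with the offset as well, with a median of 0.44.

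Of 18 further genes reported elsewhere as TonEBP targets 12 were tested, and 5 were lower and 0 higher by edgeR (also 0 higher at an unadjusted p under 0.05 and by DESeq2), with a median of −0.25, where 26.2% of all genes tested were lower and 26.3% higher. Ptgs2, which encodes cyclooxygenase COX-2, went from 85.7 ± 20.9 to 15.9 ± 1.86 CPM (SD, n = 3 per group; log2 fold change −2.43, adjusted p = 2.2e-06). Nos2, the inducible nitric oxide synthase, went from 33.7 ± 4.42 to 5.74 ± 1.99 CPM (log2 fold change −2.54, adjusted p = 8.8e-06), and Cdkn1a, the cell cycle inhibitor p21, fell by 1.33 on the log2 scale (adjusted p = 0.0021). The study names Ptgs2 and Nos2 among its own genes of interest from these libraries, so they are not independent evidence for the list. The other genes called lower were Gadd45a (log2 fold change −0.76, adjusted p = 0.00906) and Nup88 (−0.27, adjusted p = 0.0473). Nup88 lost its call by DESeq2 and with the offset (adjusted p = 0.14). The lower count depended on the setting, at 4 by DESeq2 or with the replicate block and 6 without sh-TonEBP library 1. With the offset 8 of the 12 were lower and 0 higher.

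**Figure D4:**
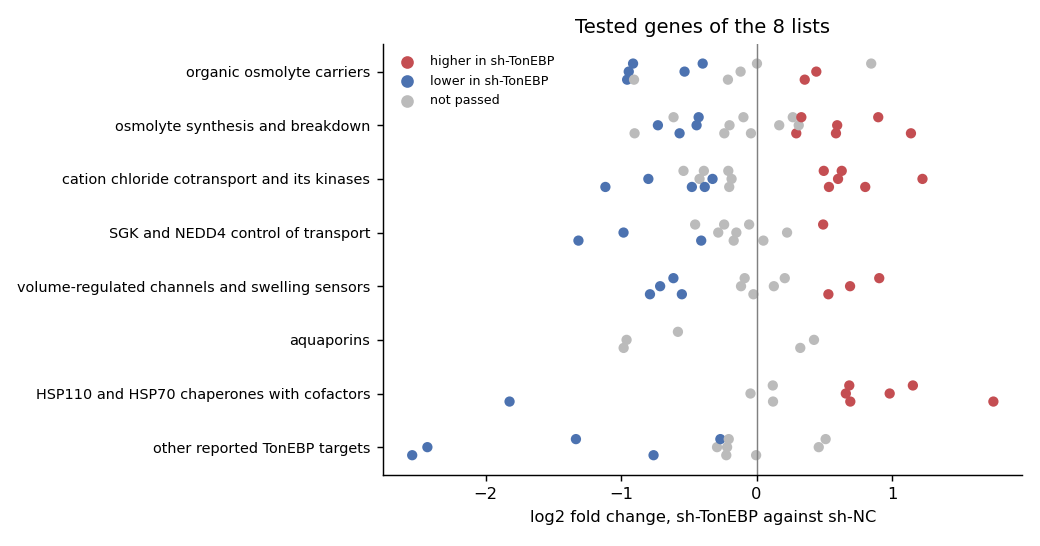
Log2 fold change of each tested gene of the 8 lists, sh-TonEBP against sh-NC, 1 point a gene. Red points were higher and blue points lower at an adjusted p under 0.05 by edgeR, and grey points did not pass. The chaperones lie mostly above 0, and the carriers and enzymes of osmolytes lie on both sides. The list of other reported TonEBP targets, which leaves out the chaperones, has no red point.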

How the data were processed

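RNA-seq libraries of poly(A) RNA were compared (sh-NC, n = 3, against sh-TonEBP, n = 3). The authors deposited raw read counts per gene. Tools named in the submitters' processing notes are HISAT2 2.0.5, cutadapt 1.15, DESeq 1.30.0 and HTSeq 0.9.1, with GRCm39 as build and no roles. Strand setting, annotation release and treatment of multiply mapped reads were not given in the sources used here. The knockdown columns do not name TonEBP and were assigned because only 2 shRNAs exist.

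Of 21899 genes, 11943 passed filterByExpr of edgeR 4.0.16 (R 4.3.3). They were TMM-normalized and tested by the robust quasi-likelihood method with Benjamini-Hochberg adjustment over all of them (common biological coefficient of variation 0.135). Replicates differed by more than sampling noise (chi-square per degree of freedom 5.53 to 30.8). The 10 genes and the lists were chosen with earlier results of these data known. The text names all 10, overlapping genes, close paralogs, the 3 genes of smallest p per list and list genes under 3 counts. Some genes that this rule takes are not reported here. Symbols (21795 matched, the other 104 holding 0.0671% of counts), transcript lengths and GC content came from GENCODE M21, whose build GRCm38 is older than the table's. The length of a gene is that of its longest transcript, protein-coding ones first. Promoters came from RefSeq (GRCm38.p6). Alternatives were DESeq2 1.42.0, other scalings and filters, the study's cutoffs, a replicate block, an offset for length and GC (mgcv 1.9.3) and leaving out each library. The steps were tested on simulated data.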

Additional observations from a re-analysis of the deposited data

How the results depend on the processing

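Under 15 alternatives for each of the 9 tested genes, Hspa4l and Slc5a3 stayed lower and past the test in all of them, Hspa4l from −2.08 to −1.14 and Slc5a3 from −1.29 to −0.39 on the log2 scale. Leaving out each library in turn gave −2.08 to −1.76 for Hspa4l, −1.29 to −0.96 for Slc5a3, −0.69 to −0.50 for Slc38a2, −0.51 to −0.32 for Slc12a2 and 0.69 to 0.97 for Lrrc8a. Slc12a2 changed sign with the length and GC offset (0.0261) and with the offset and the replicate block together (0.0282). The offset took the count of higher genes among the 9 from 1 to 2, as did the offset with the block, which left 3 lower since Aqp1 lost its call. At the study's cutoffs (an absolute log2 fold change above 1 and an unadjusted p under 0.05) 0 of the 9 were higher and 2 were lower, against 1 and 4. At the same cutoffs 762 of all genes were higher and 1019 lower, against 3140 and 3130, and 4 list genes were higher and 6 lower, against 24 and 27, since these cutoffs demand a larger change. The share of higher genes among those called was 50.1%, 42.8% at the study's cutoffs and 55.5% with the offset. The titles share replicate numbers. After the mean of the group was subtracted from the log CPM of each gene, same-numbered libraries correlated across genes at 0.18, 0.06 and −0.07. For sh-TonEBP replicates 1 and 2 the same-numbered sh-NC library correlated best, while for sh-TonEBP replicate 3 it was sh-NC replicate 2 (0.20). These small values do not settle whether the numbers are pairs, and the main fit did not take them as pairs. With the replicate block 4 of the 9 genes were lower and 1 higher, as without it, and 3289 of all genes were lower and 3147 higher. The depth limits Slc6a12 and Aqp1, whose counts were 0 to 2 and 9 to 38 per library.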

Other observations

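Close paralogs of the 10 genes were also measured, and their families moved in both directions. In the anion channel family, Lrrc8e went from 12.1 ± 1.73 CPM in sh-NC to 17.5 ± 2.65 CPM in sh-TonEBP (SD, n = 3 per group; log2 fold change 0.53, adjusted p = 0.0198 by edgeR), a call lost without sh-NC replicate 2, without sh-NC replicate 3 or without sh-TonEBP replicate 1. Lrrc8c (0.21, adjusted p = 0.156) and Lrrc8d (−0.09, adjusted p = 0.656) did not pass. Lrrc8c was higher with the offset, at 0.61 (adjusted p = 2.3e-04), and Lrrc8d again did not pass (adjusted p = 0.923). Among the potassium chloride cotransporters, which export ions from swollen cells, Slc12a7 rose from 63.4 ± 4.37 to 91.8 ± 8.48 CPM (log2 fold change 0.53, adjusted p = 0.00232). Slc12a4 (−0.18, adjusted p = 0.244) and Slc12a5 (−0.54, adjusted p = 0.0709) did not pass. Both were lower with the offset, at −0.42 (adjusted p = 0.00153) and −0.67 (adjusted p = 0.0124).

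Slc38a1, the paralog of Slc38a2, was at −0.40 (adjusted p = 0.0173), a call lost with the offset (adjusted p = 0.326), without sh-NC replicate 3 or without sh-TonEBP replicate 2. Sgk2 was higher by 0.49 on the log2 scale (adjusted p = 0.0181), a call lost without sh-NC replicate 1 or sh-TonEBP replicate 1. Sgk3 was at −0.05 (adjusted p = 0.842), and higher at 0.49 with the offset (adjusted p = 0.0225). The aldo-keto reductases close to Akr1b3 did not pass, with Akr1b8 at −0.20 (adjusted p = 0.144) and Akr1b10 at −0.04 (adjusted p = 0.818). Akr1b8, like Akr1b3, was lower with the offset, at −0.39 (adjusted p = 9.5e-04), while Akr1b10 again did not pass (adjusted p = 0.259). Akr1b7 had 1 to 6 counts per library. Reads of such close paralogs may be shared, and how they were counted is not given.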
